A study of Mus musculus with 8 samples.

Results

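MHC class II genes were examined in subcutaneous tumours of CT26, a mouse colon carcinoma line. The members are 10 genes chosen by symbol for their role in the class II pathway, and all 10 were found among the 14133 genes of the deposited table. They are the class II chain genes H2-Aa, H2-Ab1 and H2-Eb1, the invariant chain gene Cd74, the peptide-exchange genes H2-DMa, H2-DMb1, H2-DMb2 and H2-Ob, the transactivator gene Ciita and the protease gene Ctss. Tumours grew in male mice, given in the labels as BABL/C with the genotype WT. Of the 8 tumours, 4 were treated with PBS (control) and 4 with propranolol, a blocker of beta-adrenergic receptors, injected into the peritoneum each day once tumours measured 70 to 100 mm3. No source used here gives the age of the mice, the dose or the day of collection. Both groups carried the same implanted line in hosts of the same strain, and the series design text speaks of duplicates where the sample titles number 4 tumours a group. No label states that each numbered tumour came from its own animal, so p-values reflect only the spread among these tumours, which may be technical.

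MHC class II molecules present peptides from endosomes to CD4 T cells. An alpha and a beta chain assemble in the endoplasmic reticulum around the invariant chain, which blocks the peptide groove until proteases, cathepsin S among them, cut it down to a short fragment. The DM heterodimer then exchanges that fragment for antigenic peptide, and the DO heterodimer restrains DM. Expression is normally kept to dendritic cells, macrophages and B cells, and is induced in many other cells by interferon gamma. It is set by Ciita, a coactivator that does not bind DNA itself but docks on factors bound to paired sequence boxes, called X and Y, in the promoters of class II genes.

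Library totals were 15483409 to 17511937 counts, and 14006 genes were tested. Expression is given as CPM, counts scaled to library size with TMM factors, which are compared between tumours, and as the deposited FPKM, which also divide by gene length and are compared between genes. Marker lists described the makeup of the tumours. All 10 macrophage and all 10 T cell markers of the lists were in the table, as were 4 of 10 B cell markers and 5 of 10 colon epithelium markers. The epithelial genes Epcam, Krt19, Cdx2, Vil1 and Cldn7 were not analysed here. Krt20, an intestinal keratin gene, stood at 44.0 to 157 CPM, the highest of the epithelial list. The others were lower: Krt18 at 5.76 to 20.2, Lgals4 at 7.13 to 10.7, Krt8 at 0.121 to 14.0 and Cdh1 at 0.569 to 3.33 CPM.

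Of the members, 7 lie within 197 kb of the class II region on chromosome 17 (GRCm39, bases 34338515 to 34535648). Promoter windows, 250 bases before to 50 bases after a gene's start, were available for 7 members from RefSeq (GRCm38.p6, reference strain sequence). Stretches are printed from the 5 of them that held the longer Y box core TGATTGG, to show matches to words for the X and Y boxes. Whether Ciita acts through these matches was not tested. Each is read on the gene's own strand. Capitals mark matches to the X box core AGNAAC, to GATGATG, a stretch just downstream of it, and to the longer Y box core TGATTGG. The windows of H2-Aa and H2-DMb2 held no AGNAAC. A box that departs from these words is not marked, so its absence is not shown. 
H2-Aa (chr17:34287857-34287933, minus strand): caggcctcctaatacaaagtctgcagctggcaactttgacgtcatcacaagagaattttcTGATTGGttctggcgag
H2-Eb1 (chr17:34305746-34305822, plus strand): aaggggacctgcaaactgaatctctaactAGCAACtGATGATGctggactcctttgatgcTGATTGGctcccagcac
H2-Ob (chr17:34238786-34238862, plus strand): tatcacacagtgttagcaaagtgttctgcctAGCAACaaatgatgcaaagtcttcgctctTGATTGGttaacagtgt
H2-DMb1 (chr17:34153068-34153144, plus strand): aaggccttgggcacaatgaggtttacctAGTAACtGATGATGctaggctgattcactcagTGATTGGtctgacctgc
H2-DMb2 (chr17:34145097-34145173, plus strand): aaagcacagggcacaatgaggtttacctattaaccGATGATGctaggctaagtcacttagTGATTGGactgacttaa

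The pair AGNAAC followed on the same strand by ATTGG, with 10 to 40 bases between them, was present in the windows of H2-Eb1, H2-Ob and H2-DMb1. Over all 32851 promoter windows of the table, searched on both strands, 1.67% held it. TGATTGG, which contains ATTGG, lay 23 to 26 bases after AGNAAC in these genes. It was found in 5 of the 8 windows of members and in 7.82% of all windows. The stretches above were printed because they held it, and no window of H2-DMa or Ctss did. GATGATG was found in H2-Eb1, H2-DMb1 and H2-DMb2, 17 or 18 bases before TGATTGG, and in 3.48% of all windows. TGATTGG and GATGATG were chosen as search words after the windows had been read. AGCAAC alone was held by 14.8%, AGNAAC by 48.1% and ATTGG by 37.4% of all windows.

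The Ctss window held no match to these box words. A stretch of it is shown because it held the single match among members to a word like the interferon-stimulated response element, GAAA repeated with 2 free bases between, in capitals and ending 12 bases before the start of the gene.
Ctss (chr3:95526735-95526804, plus strand, GRCm38.p6): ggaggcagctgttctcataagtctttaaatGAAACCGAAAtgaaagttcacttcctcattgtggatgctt

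Of all windows, 3.44% held that word on either strand. TTCNNNGAA, a word for the gamma-activated site, was found in H2-DMb2 alone among the members and in 8.30% of all windows. A match is a description of these letters only.

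Class II transcripts averaged higher in propranolol than in control tumours for all 10 members, with log2 fold changes of 0.72 (Ctss) to 1.71 (H2-Eb1), a median of 1.41. No member passed the test. The span from the lowest to the highest propranolol tumour exceeded the fold between the groups for 10 of 10 members. The span of the control tumours did so for 8, all but H2-Ob and H2-DMb2. How many of all genes do so was not counted, so whether these counts are particular to the members is not known. Over all genes tested, the median log2 span of the 8 tumours was 0.66. The members spanned 2.31 (Ctss) to 4.96 (H2-Eb1), and 0.978% of genes tested spanned more than H2-Ab1 (4.41). With edgeR's quasi-likelihood test, 0 of 14006 genes (0%) were higher at an adjusted p under 0.05, and the adjusted p was 0.999 for every member. A log2 fold change above 0 was found for 49.4% of all genes tested, whose median was -0.0022. At an unadjusted p under 0.05, 273 genes were found by edgeR in either direction. At that level 1.24% of all genes were higher, as was 1 of the 10 members, H2-Ob. That count changed most without propranolol tumour 3, the lowest in class II. In that fit, 10 of 10 members were higher at an unadjusted p under 0.05, from 0.0064 (H2-DMb2) to 0.0402 (Ctss, edgeR). The level was reached by 1017 of 14074 genes in either direction, and how many of these were higher was not counted. The smallest adjusted p of a member was 0.641 (edgeR). Propranolol tumour 3 was the lowest of the 8 for 9 of the 10 members. Leaving it out therefore raises their propranolol mean by arithmetic, and that fit is no separate evidence. Without propranolol tumour 4, 0 of 10 members reached an unadjusted p under 0.05, beside 277 of 14054 genes in either direction. Without propranolol tumour 2, 2 members did, beside 459 of 14067 genes. DESeq2 and limma-voom also gave 0 genes past the threshold, with 337 and 249 genes at an unadjusted p under 0.05. Since the members followed each other from tumour to tumour, their shared sign is not 10 separate observations.

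**Figure D1:**
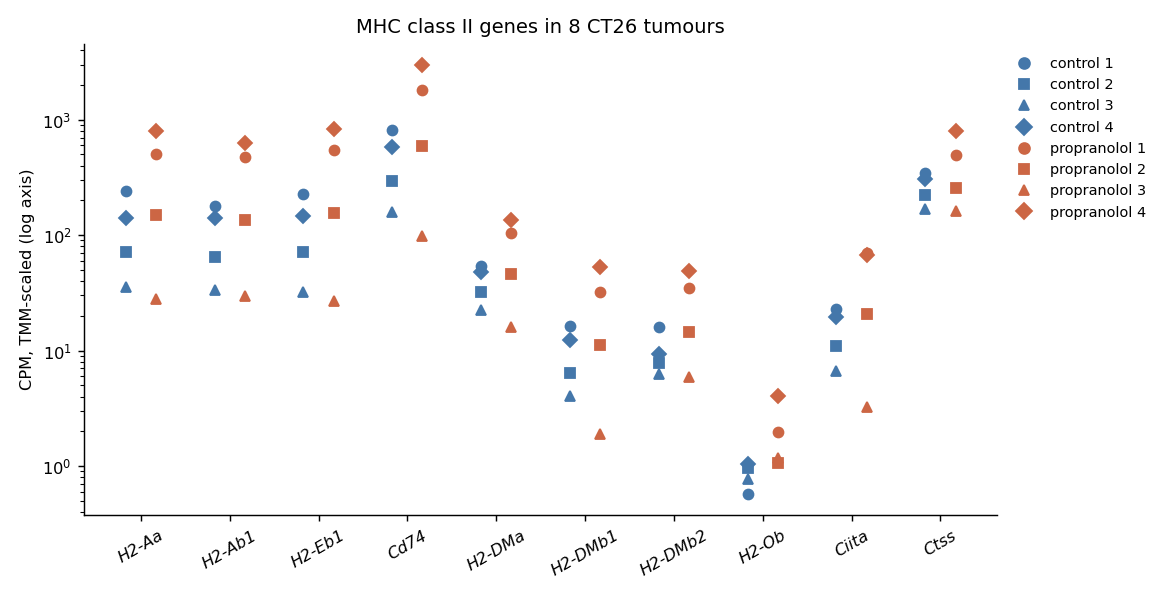
Expression of the 10 class II genes in each tumour, as TMM-scaled CPM on a log axis, with control tumours in blue and propranolol tumours in orange and the symbol giving the tumour number. Propranolol tumours 1 and 4 lay above every control tumour for all 10 genes, and propranolol tumour 3 lay below every control tumour for 9 of them, all but H2-Ob.

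The chain genes come first. H2-Aa (ENSMUSG00000036594), the alpha chain of the I-A molecule, stood at 239.7, 71.9, 35.4 and 141 CPM in control tumours 1 to 4 and at 508, 150.0, 28.0 and 792 CPM in propranolol tumours 1 to 4. H2-Ab1 (ENSMUSG00000073421), its beta partner, stood at 179, 64.9, 33.5 and 141 CPM in control tumours and 474, 135, 29.7 and 633 in those given propranolol. For both genes propranolol tumours 1 and 4 were above every control tumour, propranolol tumour 2 was within the control range and propranolol tumour 3 was the lowest of the 8. H2-Eb1 (ENSMUSG00000060586), the beta chain of the I-E molecule, stood at 228, 70.8, 32.4 and 145 CPM in control tumours and 542, 157, 26.8 and 836 in those given propranolol. Its groups overlapped in the same way, and the span from the lowest to the highest tumour was 31.2-fold, the widest of the members.

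The log2 fold changes of the chains were 1.60 for H2-Aa (SE 0.98), 1.60 for H2-Ab1 (SE 0.92) and 1.71 for H2-Eb1 (SE 1.005). In CPM, H2-Aa averaged 122 ± 89.9 in control and 369.5 ± 348 in propranolol tumours (SD, n = 4 each). The SD within the propranolol group was thus almost as large as its mean. On the log2 CPM scale, where the highest tumours weigh less, H2-Aa averaged 6.59 ± 1.19 in control and 7.67 ± 2.15 in propranolol tumours. Leaving out propranolol tumour 4 lowered the chains' values to 0.91 (H2-Aa), 1.03 (H2-Ab1) and 1.02 (H2-Eb1), and leaving out control tumour 1 raised them to 2.17, 2.003 and 2.25. Tumours with the same number deviated together across genes, though no label states a pairing and other matchings were not compared. In a fit with that number as a replicate block the chains' values were 1.10, 1.15 and 1.19 (adjusted p = 0.929 in each, edgeR).

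Cd74 (ENSMUSG00000024610, chromosome 18 from 60936920 to 60945724, GRCm39), the invariant chain, was the most abundant member. It stood at 807, 295, 160.1 and 575 CPM in control tumours 1 to 4 and at 1801, 587, 97.5 and 2953 CPM in propranolol tumours 1 to 4. The order of the tumours was the same as for H2-Aa and H2-Eb1, and the log2 fold change was 1.57 (SE 0.95). It went to 0.85 without propranolol tumour 4 and to 0.97 with the replicate block.

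Among the genes of the DM heterodimer, H2-DMa and H2-DMb2 spanned less than the chains and H2-DMb1 about as much. H2-DMa (ENSMUSG00000037649), the alpha chain of DM, stood at 54.4, 32.0, 22.3 and 47.8 CPM in control tumours and 104, 45.8, 15.9 and 134 in those given propranolol. Propranolol tumours 1 and 4 were again the highest and propranolol tumour 3 the lowest, but the span was 8.42-fold, against 28.3-fold for H2-Aa. H2-DMb1 (ENSMUSG00000079547), a beta chain of DM, stood at 16.3, 6.37, 4.07 and 12.4 CPM in control tumours and 32.0, 11.2, 1.91 and 52.5 in those given propranolol. H2-DMb2 (ENSMUSG00000037548), a neighbouring and closely related beta chain gene, stood at 16.2, 7.79, 6.25 and 9.43 CPM in control tumours and 34.6, 14.6, 5.91 and 49.1 in those given propranolol. H2-DMb1 spanned 27.5-fold over the tumours and H2-DMb2 8.30-fold.

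The log2 fold changes were 0.94 for H2-DMa (SE 0.62), 1.32 for H2-DMb1 (SE 0.89) and 1.40 for H2-DMb2 (SE 0.63). No source used here says how reads shared by the related beta chain genes were counted. With the counts of both summed into 1 feature, the log2 fold change was 1.36 (SE 0.74, adjusted p = 0.999, edgeR). Without propranolol tumour 4 the values were 0.50 for H2-DMa, 0.62 for H2-DMb1 and 0.89 for H2-DMb2. H2-DMb2 had an unadjusted p of 0.0587 with edgeR and 0.0368 in the authors' deposited table, which marks it as up although its adjusted p there is 0.9997.

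H2-Ob (ENSMUSG00000041538, chromosome 17 from 34457877 to 34473388), the beta chain of DO, was the exception among the members. It stood at 0.572, 0.967, 0.766 and 1.03 CPM in control tumours 1 to 4 and at 1.98, 1.06, 1.17 and 4.07 CPM in propranolol tumours 1 to 4. Every propranolol tumour was above every control tumour, which held for 1 of the 10 members and for 0.714% of all genes tested. The log2 fold change was 1.30 (SE 0.47), with an unadjusted p of 0.0208 and an adjusted p of 0.999 (edgeR). The authors' deposited table marks the gene as up, with an unadjusted p of 0.0169 and an adjusted p of 0.9997.

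The separation of the groups for H2-Ob was narrow. Its counts were 9, 17, 13 and 18 in control and 35, 18, 19 and 67 in propranolol tumours, so control tumour 4 and propranolol tumour 2 both held 18 reads and differed by 0.029 CPM through their library sizes. Without propranolol tumour 4 the log2 fold change was 0.74. H2-Ob also departed from the other members in the order of tumours: control tumour 1, the third highest of the 8 for the other 9 members, was the lowest, and propranolol tumour 3 was the third highest. The groups accounted for 46.6% of the sum of squares of its log2 CPM over the 8 tumours, against 5.97% to 26.0% for the other members and a median of 6.86% over all genes tested.

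Ciita (ENSMUSG00000022504, chromosome 16 from 10297923 to 10346282), the coactivator of the family, followed the chains. It stood at 23.0, 11.03, 6.72 and 19.5 CPM in control tumours and 69.8, 20.6, 3.26 and 66.8 in those given propranolol. It was the only member highest in propranolol tumour 1, and its span of 21.4-fold was near that of H2-Ab1 at 21.3-fold. The log2 fold change was 1.42 (SE 0.84), and 1.01 without propranolol tumour 1.

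Ctss (ENSMUSG00000038642, chromosome 3 from 95434097 to 95463714), the protease cathepsin S, spanned least. It stood at 345, 224, 169.7 and 303 CPM in control tumours and 495, 256, 162 and 804 in those given propranolol, a span of 4.97-fold with the order of tumours shared by H2-DMa. The log2 fold change was 0.72 (SE 0.49) and went to 0.22 without propranolol tumour 4.

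**Figure D2:**
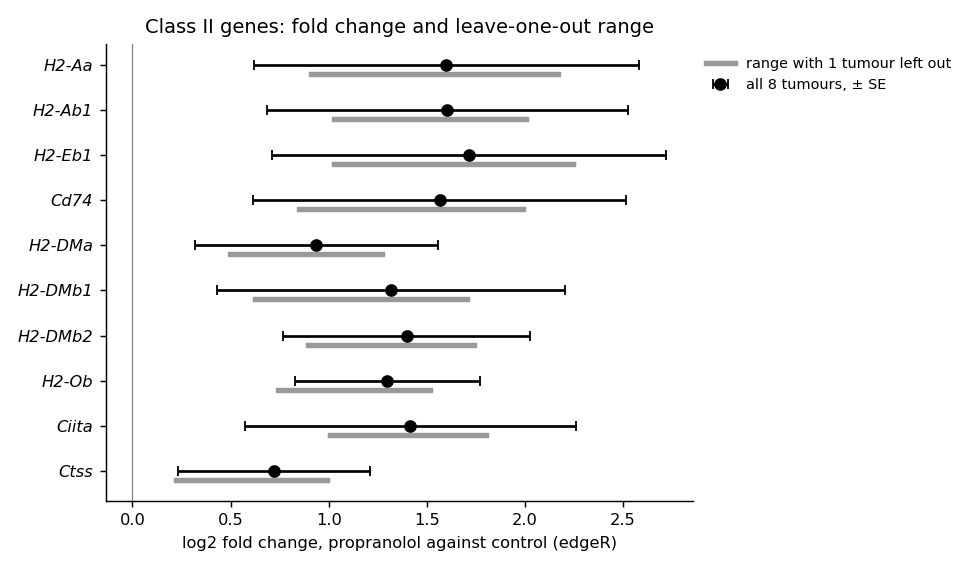
Log2 fold change of each class II gene for propranolol against control from edgeR, with its standard error (black), and the range of values when each of the 8 tumours was left out in turn (grey). All values lay above 0, from 0.22 for Ctss without propranolol tumour 4 to 2.25 for H2-Eb1 without control tumour 1.

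The members moved as 1 profile over the tumours. Propranolol tumour 4 was the highest for 9 of 10 members and propranolol tumour 3 the lowest for 9 of 10. Together the members held 0.0360% of all counts in propranolol tumour 3 and 0.629% in propranolol tumour 4, while control tumours held 0.0456% to 0.194%. Both extremes of class II expression were thus found among the tumours given propranolol. Between same-numbered tumours, 9 members were higher with propranolol in 3 of 4 pairs, all but pair 3, and H2-Ob in 4 of 4.

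**Figure D3:**
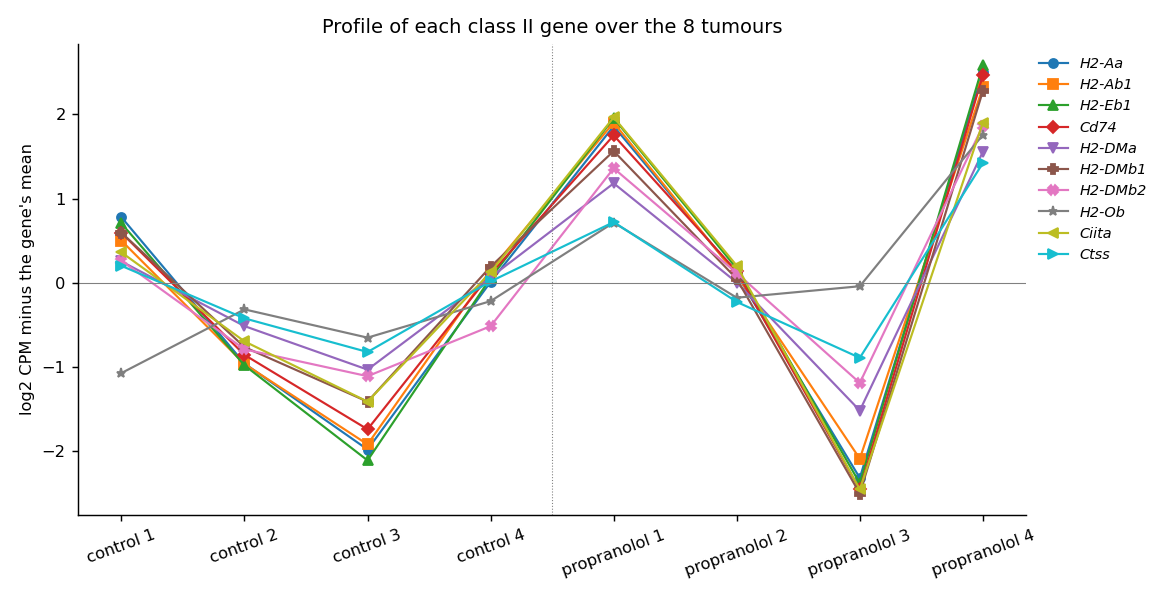
Log2 CPM of each class II gene minus its own mean over the 8 tumours, with lines joining tumours only to guide the eye. The chains, Cd74, H2-DMb1 and Ciita lay close together, H2-DMa, H2-DMb2 and Ctss followed with smaller swings, and H2-Ob departed in control tumour 1 and propranolol tumour 3.

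How tightly members kept their proportions was described by the SD, over the 8 tumours, of the log2 ratio of a pair. The tightest pair was H2-Aa with H2-Eb1, which belong to different class II molecules, at 0.08. Any pair among the 3 chains and Cd74 had an SD of at most 0.19, and Cd74 with H2-DMb1 had 0.18. Ciita had an SD of 0.24 to 0.41 against the chains, Cd74 and H2-DMb1. H2-DMa kept its proportion to H2-DMb2 (0.31) and to Ctss (0.32) more closely than to H2-DMb1 (0.51). The widest pair was H2-Ob with H2-Eb1 at 1.40.

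Per length, the order of levels by median FPKM over the 8 tumours was Cd74 (349), Ctss (208), H2-Eb1 (78.4), H2-Ab1 (54.1), H2-Aa (38.6), H2-DMa (13.7), H2-DMb1 (7.05), H2-DMb2 (6.94), Ciita (2.12) and H2-Ob (0.197). Seen within each tumour, 7 of the 9 neighbouring pairs kept this order in 8 of 8 tumours. The exceptions were Cd74 above Ctss, in 6 of 8 tumours, and H2-DMb1 above H2-DMb2, in 3 of 8, so the DM beta chains were not separated. In control tumour 3 and propranolol tumour 3, the tumours with the least class II RNA, Ctss was above Cd74, at 121 against 92.3 and at 115 against 56.2 FPKM. Class II chains vary in sequence between mouse strains, and whether reads were lost through such differences from the reference was not tested.

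Within-tumour ratios of CPM, which do not depend on library scaling, asked whether the balance between members differed between the groups. None of the 8 ratios fixed for this did so in an exact permutation test (two-sided), which with 4 tumours a group can reach 0.0286 at the lowest. The smallest was p = 0.200 for Ciita over H2-Ab1 (adjusted over the 8 ratios, 0.571; exact permutation test), with log2 ratios of -2.66 ± 0.30 in control and -2.96 ± 0.27 in propranolol tumours (SD, n = 4). H2-Ab1 over Cd74, chain against invariant chain, stayed between -2.25 and -1.71 in every tumour, with a difference of 0.17 between the groups (exact permutation p = 0.229). H2-Eb1 over H2-Ab1 differed by 0.05 (exact permutation p = 0.743). Taken by tumour number, 2 ratios had 1 sign in all 4 pairs. H2-DMa over H2-Ab1 was lower with propranolol, by -0.48, -0.54, -0.31 and -0.68 in pairs 1 to 4, and H2-Ab1 over H2-K1 was higher, by 0.73, 0.65, 0.36 and 1.44. An exact sign-flip permutation test over 4 pairs cannot go below p = 0.125, so neither could pass.

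Of the other balances, H2-DMa over H2-Ab1 and Ctss over Cd74 ran along with the amount of class II RNA, a relation that was not tested. Their denominators spanned 21.3-fold (H2-Ab1) and 30.3-fold (Cd74), and their numerators 8.42-fold (H2-DMa) and 4.97-fold (Ctss). A fall where class II is high is thus partly arithmetic. H2-DMa over H2-Ab1 was -0.58 in control tumour 3 and -0.89 in propranolol tumour 3, where the chains were lowest, and -2.19 and -2.24 in propranolol tumours 1 and 4, where they were highest. Its group means were -1.22 ± 0.52 in control and -1.72 ± 0.63 in propranolol tumours (SD, n = 4; exact permutation p = 0.286). Ctss over Cd74 ran from 0.73 in propranolol tumour 3 to -1.88 in propranolol tumour 4, with group means of -0.62 ± 0.58 and -1.05 ± 1.23 (SD, n = 4; exact permutation p = 0.571). The difference of -0.44 went to -0.16 without propranolol tumour 4 and to -1.03 without propranolol tumour 3. H2-Ob over H2-DMa had its lowest value, -6.30, in control tumour 1 and its highest, -3.64, in propranolol tumour 3 (exact permutation p = 0.543), and its difference of 0.42 went to 0.0036 without propranolol tumour 3.

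**Figure D4:**
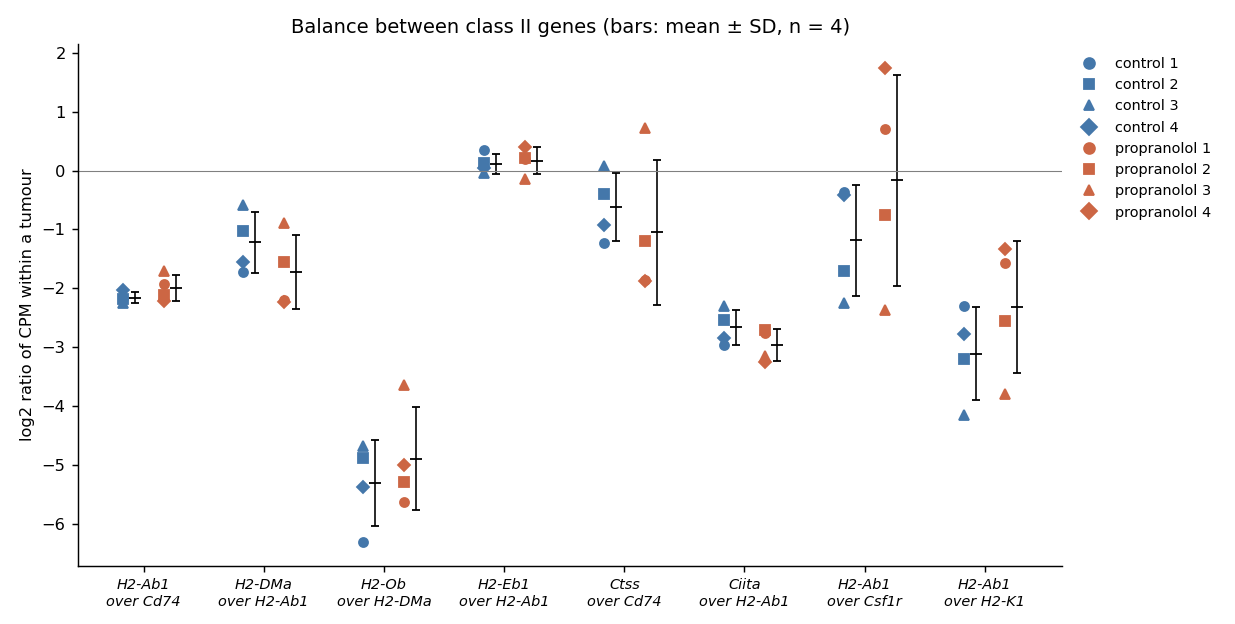
Log2 ratio of CPM of 2 genes within each tumour for the 8 ratios, with group means and SD (n = 4) as black bars. The groups overlapped in every ratio, and H2-Ab1 over Csf1r had the widest span, 4.10 on the log2 scale, from -2.36 in propranolol tumour 3 to 1.74 in propranolol tumour 4.

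Against genes of the cells that carry class II, the members spanned widely. H2-Ab1 over Csf1r, the receptor gene of macrophage growth factor, averaged -1.19 ± 0.95 in control and -0.17 ± 1.78 in propranolol tumours (SD, n = 4; exact permutation p = 0.371). The difference of 1.02 went to 0.38 without propranolol tumour 4 and to 1.75 without propranolol tumour 3. The summed CPM of the 10 members spanned 17.003-fold over the tumours. That of 10 macrophage markers spanned 1.70-fold, with 1326 to 1787 CPM in control and 1304 to 2216 CPM in propranolol tumours. That sum joins markers that ran in different directions. Mrc1 was highest in propranolol tumour 3 (433 CPM) and lowest in propranolol tumour 4 (186 CPM). Fcgr1 was lowest in propranolol tumour 3 (29.7 CPM) and highest in propranolol tumour 4 (107 CPM). In bulk tissue, fewer cells of a type and less RNA per cell cannot be told apart, and which cells held the class II transcripts was not tested. The complement gene C1qa stood at 0.47 (SE 0.27) on the log2 fold change scale. Of the macrophage markers 9 of 10 were above 0, with a median of 0.30, and Mrc1 was below at -0.32 (SE 0.22).

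Dendritic cell markers, 10 of 10 in the table, summed to 24.2 to 49.2 CPM in control and to 26.5 to 85.6 CPM in propranolol tumours, a span of 3.54-fold. Xcr1 and Clec9a, receptor genes of cross-presenting dendritic cells, spanned more than the list. Xcr1 stood at 0.589 to 4.58 CPM in control and 0.493 to 21.4 CPM in propranolol tumours, and Clec9a at 0.589 to 3.68 and 0.924 to 13.2 CPM. Their log2 fold changes, 1.58 (SE 1.02) and 1.31 (SE 0.80), were the largest of the list, and both genes were highest in propranolol tumour 4. Of the dendritic cell markers 8 of 10 were above 0, with a median of 0.40. Cd209a at -0.88 (SE 0.78) and Zbtb46 at -0.20 (SE 0.19) were below. B cell markers summed to at most 4.94 CPM in control tumours and 7.40 in those given propranolol. Ms4a1 and Pax5, which define B cells, were not analysed here, and Cd22, an inhibitory co-receptor gene of B cells, and Cd79a, a subunit gene of their antigen receptor, stood at 0.59 (SE 0.40) and 0.34 (SE 0.50) on the log2 fold change scale.

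T cell markers, whose cells in the mouse largely lack class II, ordered the extreme tumours as the members did. Their sum was 16.4 to 49.2 CPM in control and 7.64 to 189 CPM in propranolol tumours, a span of 24.7-fold with propranolol tumour 3 lowest and propranolol tumour 4 highest, as for class II. Cd3d and Cd8b1, T cell receptor and co-receptor genes, stood at 2.04 (SE 0.82) and 2.14 (SE 0.92) on the log2 fold change scale, and 10 of 10 T cell markers were above 0 with a median of 1.50. The part of these differences in T cell RNA in the class II result was not tested. Of the 5 epithelial markers in the table, 3 were above 0 and 2 below, with Krt8 and Krt18, keratin genes of simple epithelia, at -1.10 (SE 1.11) and -0.38 (SE 0.41).

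**Figure D5:**
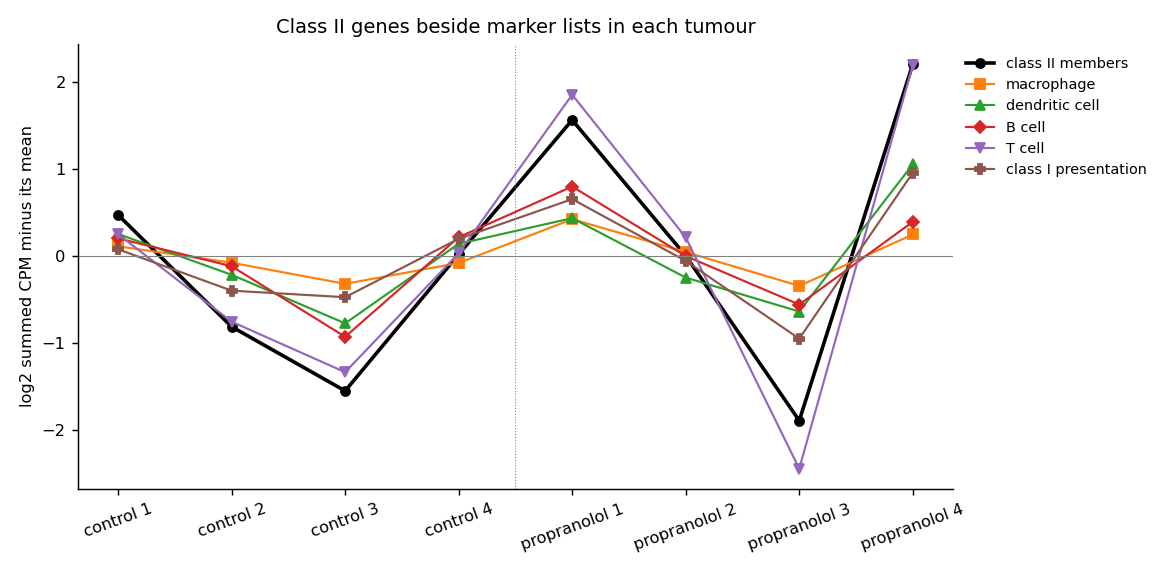
Log2 of the summed CPM of the 10 class II genes and of the marker and class I lists in each tumour, minus each sum's own mean, with lines joining tumours only to guide the eye. The class II sum (black) and the T cell sum swung most, by 17.003-fold and 24.7-fold, and the macrophage sum least, by 1.70-fold.

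The signal that induces Ciita was sparse in transcripts. Ifng, which encodes interferon gamma, stood at 1.27, 0.171, 0.413 and 1.32 CPM in control tumours and 4.06, 1.42, 0 and 10.7 in those given propranolol. Its highest tumours were those highest in class II, propranolol tumours 4 and 1, and the single tumour at 0 was propranolol tumour 3. Its log2 fold change was 2.34 (SE 1.21), and that of Ifngr1, a receptor chain gene, was 0.21 (SE 0.12). Irf1, a transcription factor gene through which interferon gamma acts, stood at 0.85 (SE 0.61) on the log2 fold change scale. Nlrc5, the class I relative of Ciita, had 0.67 (SE 0.49) and spanned 49.2 to 318 CPM over the 8 tumours. Of this list, 9 of 10 genes were above 0 and 0 passed, with a median of 0.26.

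The factors that bind the X and Y boxes averaged close to level. Over the 7 genes of this complex, 2 were above 0 and 5 below, 0 passed, and the median was -0.03. Rfx5, the subunit gene of the X box factor with the smallest p, stood at 15.5, 14.8, 14.9 and 15.7 CPM in control tumours and 20.2, 17.6, 15.1 and 19.6 in those given propranolol. Propranolol tumour 3 was within the control range and the other 3 were above it (log2 fold change 0.25, SE 0.12). Rfxap, another subunit gene of that factor, had 0.11 (SE 0.14).

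Genes of endosomal processing differed little, with 7 of 10 above 0, 0 past the threshold and a median of 0.12. Ctsl and Ctsb, cathepsin genes like Ctss, stood at -0.24 (SE 0.17) and 0.16 (SE 0.13) on the log2 fold change scale. For class I presentation, 10 of 10 genes were above 0 and 0 passed, with a median of 0.61. Psmb9, an immunoproteasome gene, and Tap2, a peptide transporter gene, had 1.06 (SE 0.80) and 0.75 (SE 0.54). The class I sum spanned 3.74-fold over the tumours, and H2-Ab1 over the class I gene H2-K1 averaged -3.11 ± 0.79 in control and -2.31 ± 1.12 in propranolol tumours (SD, n = 4; exact permutation p = 0.286).

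Genes outside the members were ranked by likeness to the mean centred log2 CPM of H2-Aa, H2-Ab1, H2-Eb1 and Cd74, measured as the root mean square difference over the 8 tumours among 11452 genes. The 10 most alike were Cd226, Cd3g, Nkg7, AW112010, Klrc2, Trac, Ms4a4b, Ctsw, Klrc1 and Trbc2, at 0.171 to 0.329 on the log2 scale, where the median gene stood at 1.599. Cd226, an activating receptor gene of T and NK cells, stood at 3.56, 1.42, 0.472 and 2.18 CPM in control tumours and 7.90, 2.07, 0.431 and 13.7 in those given propranolol. Its order of tumours was that of H2-Ab1. Of the members outside the 4 reference genes, H2-DMb1 stood at 0.252, Ciita at 0.314, H2-DMa at 0.624, H2-DMb2 at 0.628, Ctss at 0.883 and H2-Ob at 1.23. The macrophage list ran from 0.987 (Fcgr1) to 1.89 (Mrc1), and the dendritic cell list from 0.420 (Xcr1) to 1.99 (Cd209a). The T cell list ran from 0.219 (Cd3g) to 0.861 (Cd4), and the class I list from 0.496 (Psmb9) to 1.14 (Erap1). This measure counts the size of a swing as well as its shape. Ctss, which had the same order of tumours as H2-Ab1 but spanned less, is an example.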

How the data were processed

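RNA was sequenced from 8 tumours, 4 control and 4 propranolol, numbered 1 to 4 in the sample titles, although the series design text speaks of duplicates, so n = 4 rests on the titles. Per the file headers, the deposited table gives raw read counts and FPKM for each tumour, and the authors' log2 fold change, p-value and adjusted p-value. Tools listed in the submitters' processing notes are fastp 0.19.3, HISAT2 2.1.0, featureCounts 1.6.2, StringTie 1.3.4d, DESeq2 1.22.1, edgeR 3.24.3 and GRCm39, without their roles. No source used here states whether counting used strand. Each row exceeds 1 CPM in at least 2 libraries, so genes below that are not analysed here.

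Counts were tested across all genes with edgeR 4.0.16 in R 4.3.3 (glmQLFit, glmQLFTest, robust; TMM; filterByExpr, which removed 127 rows; Benjamini-Hochberg adjustment, threshold 0.05). A standard error is the log2 fold change divided by the square root of F. Log2 CPM used a prior count of 2. The step was checked on simulated counts with known changes. Alternatives were DESeq2 1.42.0, limma-voom (limma 3.58.1), other scaling, no filter, each tumour left out, and the tumour number as a replicate block. Deviations of same-numbered tumours from their group means correlated at 0.190 to 0.508 in all 4 pairs (Pearson, across genes). Other ways of matching the tumours were not compared, so this does not establish that the numbers pair them. No label states a pairing, and the main fit and the permutation tests between groups used the group only.

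Members, gene lists, ratios and the naming rule were chosen with earlier results of these data known. The rule names all members, for each list the 2 genes with the smallest p, Irf1, Nlrc5 and Rfx5, and the 10 genes most alike; symbols starting Gm or ending Rik, and those under a mean log2 CPM of 1, were left out of likeness. A few genes the rule names are not reported here. Of 97 list genes 82 were in the table. Further list genes named for a range, for a direction opposite to their list or as not analysed here were chosen after their values were seen.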

Additional observations from a re-analysis of the deposited data

How the results depend on the processing

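With the replicate block, with DESeq2, with other scaling factors, without the filter on low counts and with each of the 8 tumours left out, 0 genes passed in either direction. With the replicate block the smallest adjusted p over all genes was 0.929, and 717 genes in place of 273 had an unadjusted p under 0.05 (edgeR); without propranolol tumour 3 there were 1017 and without propranolol tumour 1 there were 134. All 10 members kept a log2 fold change above 0 under each alternative run, and none passed. The smallest adjusted p of a member in any of these fits was 0.641 (H2-DMb2, H2-Ob and Ciita, edgeR without propranolol tumour 3). With limma-voom, added after the data were seen, the values were 0.51 (Ctss) to 1.16 (H2-Eb1). With the replicate block they were 0.51 (Ctss) to 1.19 (H2-Eb1). A limma-voom value compares means of log2 values, whereas edgeR's follows mean CPM, in which the highest tumours weigh more. For H2-Aa, mean log2 CPM was 6.59 in control and 7.67 in propranolol tumours, and mean CPM was 122 and 369.5. Why the replicate block gave lower sizes was not tested. The ratio of H2-Eb1 over H2-Ab1, 0.05 with all tumours, ran from -0.029 without propranolol tumour 4 to 0.15 without propranolol tumour 3, and was -0.0059 without control tumour 3. The other 7 ratios kept their sign with prior counts of 0.5 and 5, with FPKM and with each tumour left out, and none passed. Averaged over number pairs, a difference equals that between the groups by arithmetic, so its sign could not change. Within pairs, only H2-DMa over H2-Ab1 and H2-Ab1 over H2-K1 had 1 sign in all 4. Over 4 pairs the exact sign-flip permutation test cannot go below p = 0.125, so it could not pass for any ratio. H2-Ob over H2-DMa went from 0.42 to 0.0036 without propranolol tumour 3. Its size also moved with the offset, to 0.49 with a prior count of 0.5, 0.31 with 5 and 0.19 with FPKM plus 0.1. Depth limits H2-Ob most, at 9 to 67 reads a tumour.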

Other observations

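The counts of H2-DMb1 over H2-DMb2 were not constant. They stood at 1.01, 0.818, 0.651 and 1.31 in control tumours 1 to 4 and at 0.925, 0.765, 0.323 and 1.07 in propranolol tumours 1 to 4. H2-DMb1 held fewer reads than H2-DMb2 in 5 of the 8 tumours, among them control tumour 3 and propranolol tumour 3, the tumours lowest in class II, where H2-DMb1 held 69 and 31 reads and H2-DMb2 106 and 96.

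Of 6 class II and costimulation genes listed outside the members, 5 had a log2 fold change above 0 and 1 below, with a median of 0.68, and 0 passed (edgeR; 2 at an unadjusted p under 0.05, Cd83 and Lag3). Cd83, which stabilises class II on dendritic cells, stood at 8.84, 5.52, 5.66 and 6.44 CPM in control and 14.6, 6.74, 8.50 and 15.2 CPM in propranolol tumours (log2 fold change 0.77, SE 0.29). Lag3, an inhibitory receptor gene whose product binds class II, stood at 4.33, 2.28, 2.06 and 4.02 CPM in control and 16.7, 3.78, 1.54 and 23.9 CPM in propranolol tumours (log2 fold change 1.85, SE 0.79). Neither passed (adjusted p = 0.999 for both, edgeR). Cd40, a costimulatory receptor gene, had a log2 fold change of 1.14 (SE 0.69), Marchf1, a ubiquitin ligase gene that targets class II, 0.59 (SE 0.48) and Cd86, a costimulatory ligand gene, 0.22 (SE 0.33). Cd80, another costimulatory ligand gene, lay between 18.1 and 23.9 CPM in all 8 tumours, with a log2 fold change of -0.07 (SE 0.12). The partner chain genes H2-Ea and H2-Oa, of the I-E and DO molecules, were not analysed here.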
